A study of Homo sapiens with 12 samples.

Results

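The 38 genes described here work in the G2 phase and in mitosis. They encode the cyclins and kinases that start mitosis, the spindle checkpoint, the kinetochore, the spindle motors and the proteins that divide the cell at its end. Members were all probes of an Illumina BeadChip whose annotated gene symbol was on the list, whatever their signal. The array annotates 20043 genes by a single symbol, and the 38 members were all found, read by 60 probes. All 60 probes passed the filter used for the whole array, which asked that 3 or more of the 12 arrays give a detection p-value under 0.01. A single probe reads 19 members, 2 probes read 17, 3 probes read CDC25C and 4 probes read BUB3. All 12 arrays detected 49 of the 60 probes, and the other 11 were detected on fewer.

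The RNA came from HEK293 cells, a human embryonic kidney line, in a pair of isogenic lines that stably express a glucocorticoid receptor (GR). GR3KR is a receptor that cannot be SUMOylated, and wtGR is the wild-type receptor. The 4 groups were GR3KR cells under dexamethasone plus 15d-PGJ2 or under dexamethasone alone, and wtGR cells under dexamethasone plus 15d-PGJ2 or under dexamethasone alone, with 3 arrays each. Dexamethasone, a synthetic glucocorticoid, was given to every group at 100 nM, and 15d-PGJ2, an electrophilic prostaglandin, at 5 µM, both for 6 h after 36 h in medium with 2.5% charcoal-stripped serum. No group went without dexamethasone. Each receptor form is represented by 1 line, so the receptor form and the line that carries it cannot be told apart. Nothing states that the arrays of a group came from separate cultures, so p-values measure the spread between these samples, which may be technical.

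Entry into mitosis is driven by CDK1 bound to cyclin B. PKMYT1 and WEE1 hold this kinase inactive by phosphorylation, and the CDC25 phosphatases release it. During mitosis the spindle checkpoint, built from BUB1, BUB1B, BUB3, MAD2L1 and TTK, keeps the anaphase-promoting complex and its activator CDC20 in check until the chromosomes are attached. Transcripts of these genes rise together in G2 in dividing cells. The rise is known to depend on CCAAT boxes, bound by NF-Y, and on the cell cycle genes homology region (CHR), bound by the MuvB complex with B-MYB and FOXM1 when the genes are on and by the DREAM complex when they are off. In a dividing culture the level of such a transcript therefore depends on how many cells are in G2 or mitosis as well as on the amount per cell, and bulk arrays cannot tell these apart.

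The promoters of 4 members that stood higher in the GR3KR line are shown because 3 of them carry both kinds of element and BUB1 the CCAAT boxes alone. They were taken from RefSeq on build GRCh38.p14, 5′ to 3′ in the direction of the gene, as the 250 bases before the gene's start. Capitals mark CCAAT boxes (CCAAT, or ATTGG where the box lies on the other strand) and CHR elements (TTTGAA, or TTCAAA on the other strand, and TTTAAA). BUB1, a checkpoint kinase, lies on the minus strand, at chr2:110678064-110678313. CENPA, the histone H3 variant of centromeres, lies on the plus strand, at chr2:26785806-26786055. CCNB1, cyclin B1, lies on the plus strand, at chr5:69166900-69167149, and KIF20A, a kinesin of the central spindle, on the plus strand, at chr5:138178862-138179111.
BUB1: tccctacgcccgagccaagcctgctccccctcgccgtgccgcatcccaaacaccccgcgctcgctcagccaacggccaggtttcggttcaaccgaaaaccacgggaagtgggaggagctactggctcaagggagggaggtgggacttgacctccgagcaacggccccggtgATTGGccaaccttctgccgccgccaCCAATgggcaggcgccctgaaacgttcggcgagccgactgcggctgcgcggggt
CENPA: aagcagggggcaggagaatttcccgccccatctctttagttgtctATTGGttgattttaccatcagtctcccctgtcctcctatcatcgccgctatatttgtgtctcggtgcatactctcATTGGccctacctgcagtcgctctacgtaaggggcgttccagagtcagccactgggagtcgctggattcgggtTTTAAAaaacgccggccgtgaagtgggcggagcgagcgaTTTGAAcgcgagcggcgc
CCNB1: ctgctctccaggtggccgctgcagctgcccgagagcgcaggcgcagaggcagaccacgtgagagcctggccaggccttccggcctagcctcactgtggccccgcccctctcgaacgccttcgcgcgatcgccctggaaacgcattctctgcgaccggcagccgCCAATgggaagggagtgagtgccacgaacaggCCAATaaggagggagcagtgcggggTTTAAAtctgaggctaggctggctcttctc
KIF20A: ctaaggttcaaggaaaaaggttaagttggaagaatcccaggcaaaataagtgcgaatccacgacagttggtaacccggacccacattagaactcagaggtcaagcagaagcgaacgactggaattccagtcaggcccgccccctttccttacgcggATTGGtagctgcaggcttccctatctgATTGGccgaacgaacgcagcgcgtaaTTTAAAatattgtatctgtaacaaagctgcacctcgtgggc

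Counted from the gene's start, with the base before it at -1, BUB1 has CCAAT boxes that begin at -79 and -54 and no CHR match. CENPA has CCAAT boxes at -205 and -130, a TTTAAA at -57 and a TTTGAA at -18. CCNB1 has CCAAT boxes at -87 and -55 and a TTTAAA at -30, and KIF20A has CCAAT boxes at -94 and -67 and a TTTAAA at -41. In all 3 promoters with a CHR match, it lies between the CCAAT boxes and the start. This layout was not counted over the other members, and some depart from it. In TOP2A, TTTGAA at -194 and -151 lies farther from the start than CCAAT boxes at -93 and -53. In MAD2L1 the TTTGAA lies after the start, at 25. Other members with a probe called higher in the GR3KR line also varied. PTTG1 carries both kinds of element, KIF2C and CENPE have no CCAAT box and NEK2 has no CHR match.

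Promoter windows of 300 bases, 250 before the start and 50 after it, were found for 31 of the 38 members, 41 windows in all because 6 members have more than 1 listed start. The members PKMYT1, BUB3, TTK, UBE2C, AURKA, BIRC5 and TPX2 had no entry. A CCAAT box on either strand was present in 32 of the 41 windows (78%), against 34.6% of all 35116 promoter windows and 34.9% of the windows of genes with a detected probe. TTTGAA was present in 58.5% of the members' windows, against 15.2% of all windows, and TTTAAA in 36.6%, against 12.2%. A CCAAT box and a CHR together were present in 25 windows (61%), against 9.27% of all windows and 6.7% of those of genes with a detected probe. Neighbouring matches overlapped 3 times in the members' windows. Of the 69 CCAAT boxes found, 53 (76.8%) began in the 150 bases before the start, with a median position of -87. The TTTGAA matches had a median position of -29 and the TTTAAA matches of -62, so the CHR lay closer to the start than the CCAAT boxes by these medians. A match describes these letters and is not a measured binding site, and the array data do not test the motifs.

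**Figure D1:**
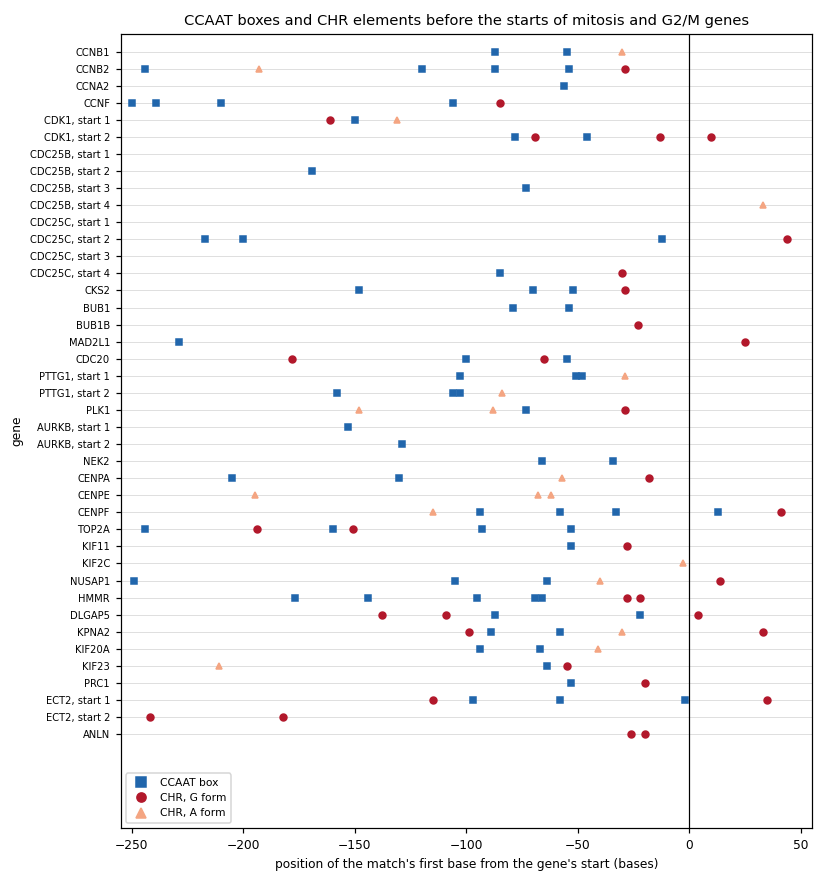
Positions of CCAAT boxes (blue squares) and of the 2 CHR forms (red circles and light triangles) in each member's promoter window, in bases from the gene's start; each row is 1 listed start. Of the 69 CCAAT boxes, 53 begin in the 150 bases before the start.

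The signals were background corrected with the detection p-values, normalized by quantiles and log2 transformed, and every value below is such a log2 intensity or a difference of them. Arrays 1 and 2 of GR3KR cells with 15d-PGJ2 stood apart. Array 3 lay outside the other 9 arrays in the number of probes detected and in the median intensity before normalization. These median intensities were 63.0, 58.3 and 64.0 on arrays 1, 2 and 3, against 69.3 to 89.6 on the other 9. The 3 arrays detected 15223, 14207 and 17032 of the probes on the array, against 17959 to 19950 on the other 9 arrays, and 50, 53 and 56 of the 60 member probes, against 55 to 60. Where a gene has 2 probes, their deviations from the mean correlated with r of 0.0835, 0.119 and 0.239 on these 3 arrays, against 0.205 to 0.373 on the others, across 3228 genes that are not independent. Within the members, the interquartile range of the probes' deviations was 1.96, 1.34 and 0.48 on these arrays and 0.38 to 0.85 on the others. Values without arrays 1 and 2 of this group are therefore given beside the main results that use it. That leaves 1 array of the group, assumed to vary like the other groups, so fewer probes pass the test on the whole array and a lost call alone says little of a probe. Among the other 9 arrays, wtGR dexamethasone array 3 had the lowest correlation between probes of a gene, 0.205, and the fewest member probes detected, 55. No pair of arrays held identical values. Of the markers of HEK293 cells, KRT8, VIM and NEFL were detected on all 12 arrays, KRT18 on 4 or 5 by probe and NEFM on 3, while the leukocyte markers PTPRC and CD3E and the endothelial marker PECAM1 were detected on none. The fibroblast marker COL1A1 was detected on all 12 arrays, at 6.04 to 7.36, COL3A1 on 2, and the liver marker ALB on 11 by one probe and on 0 by the other, and their part in the results was not tested. The detected probe of NR3C1, which encodes GR, read 5.38 to 6.19 on 12 arrays, was detected on 10 of them, and does not tell the receptor forms apart.

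**Figure D2:**
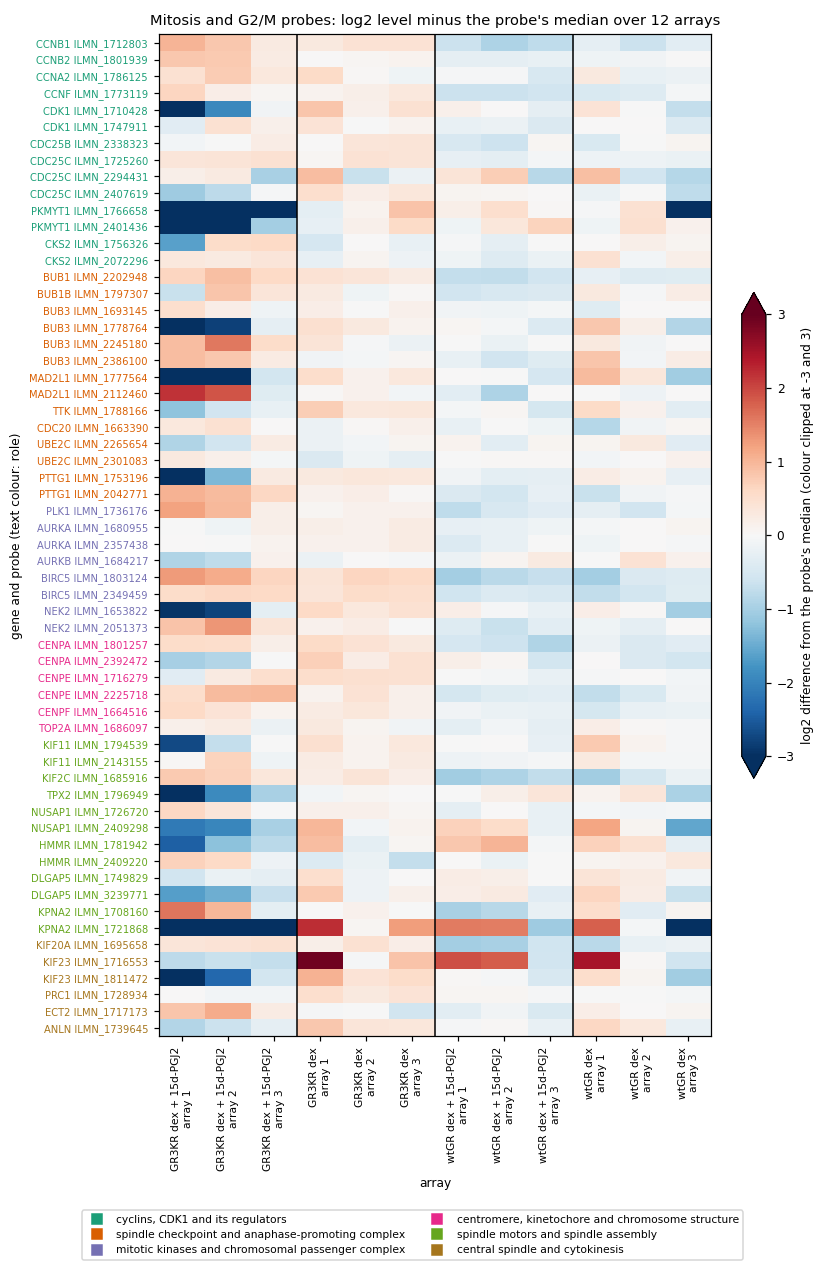
Log2 level of each of the 60 member probes (rows, coloured by role) on each of the 12 arrays (columns, GR3KR groups left, wtGR groups right), as the difference from the probe's median over the arrays, with the colour clipped at -3 and 3. Arrays 1 and 2 of GR3KR cells with 15d-PGJ2 show the widest spread, with interquartile ranges of 1.96 and 1.34, and hold probes far above and far below their medians.

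The first comparison asks how the GR3KR line differed from the wtGR line under dexamethasone alone. None of the 6 arrays it rests on is from the group that stood apart. However, 1 of them is wtGR dexamethasone array 3, whose correlation between probes of a gene was 0.205. Of the 60 member probes, 4 were higher in the GR3KR line and 0 lower, at an adjusted p under 0.05 from limma with Benjamini-Hochberg adjustment over all 20909 kept probes. They read BIRC5 by both of its probes, BUB1 and CENPA. All groups share 1 estimate of the spread, and without GR3KR dexamethasone and 15d-PGJ2 arrays 1 and 2 in it the counts were 10 higher, these 4 among them, and 1 lower, against 4.39% and 7.68% of all kept probes. Over all kept probes 1.55% were called higher and 3.16% lower. The median difference of the members was 0.26, against 0.00 over all kept probes, and 47 of the 60 (78.3%) were positive, against 50.4% of all probes. When 1 array was left out, 37 to 50 of the 60 were positive and the members' median was 0.16 to 0.39. Both were lowest without wtGR dexamethasone array 3, where the median of all probes was 0.01. With median scaling in place of quantile normalization, 24 of the 60 were positive and the members' median was -0.06, but the median of all probes was then -0.25, so the members stood 0.19 above it.

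BIRC5 encodes survivin, a subunit of the chromosomal passenger complex that also holds the kinase AURKB. Its probe ILMN_2349459 read 11.09, 11.27 and 11.23 in GR3KR cells with dexamethasone, against 9.99, 10.18 and 10.37 in wtGR cells with dexamethasone. Its other probe, ILMN_1803124, read 8.58, 8.84 and 8.78 in GR3KR cells, against 7.17, 7.75 and 7.80 in wtGR cells. The lines did not overlap for either probe. The differences were 1.02 (SE 0.15, adjusted p = 0.0042 from limma) and 1.16 (SE 0.22, adjusted p = 0.0153 from limma). BIRC5 was the only member gene with 2 or more probes all called in 1 direction here, as were 0.991% of the 3228 such genes on the array. The call of ILMN_2349459 held whichever of the 12 arrays was left out, and that of ILMN_1803124 was lost without GR3KR dexamethasone array 2 or array 3, with differences of 0.96 to 1.28 over the arrays left out.

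BUB1, the checkpoint kinase that recruits the other checkpoint proteins to kinetochores, read 10.04, 9.98 and 9.86 in GR3KR cells and 9.35, 9.22 and 9.25 in wtGR cells. CENPA, by probe ILMN_1801257, read 9.59, 9.44 and 9.30 in GR3KR cells and 8.84, 8.57 and 8.68 in wtGR cells. For both genes every GR3KR array lay above every wtGR array. BUB1 differed by 0.69 (SE 0.15, adjusted p = 0.0254) and CENPA by 0.75 (SE 0.18, adjusted p = 0.0387), both from limma. Both calls stood near the threshold. That of BUB1 was lost in 7 of the 12 fits without 1 array, those without wtGR dexamethasone array 2 or 3, wtGR dexamethasone and 15d-PGJ2 array 1 or 2, or any GR3KR dexamethasone array, with differences of 0.65 to 0.73. That of CENPA was lost in 9 of the 12, those without any of the 6 dexamethasone arrays, wtGR dexamethasone and 15d-PGJ2 array 1 or 2, or GR3KR dexamethasone and 15d-PGJ2 array 2, with differences of 0.67 to 0.82. With median scaling the differences of these 4 probes were 0.80 and 0.61 for BIRC5 (ILMN_1803124 given first), 0.30 for BUB1 and 0.36 for CENPA, and only 1 member probe was then called higher.

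**Figure D3:**
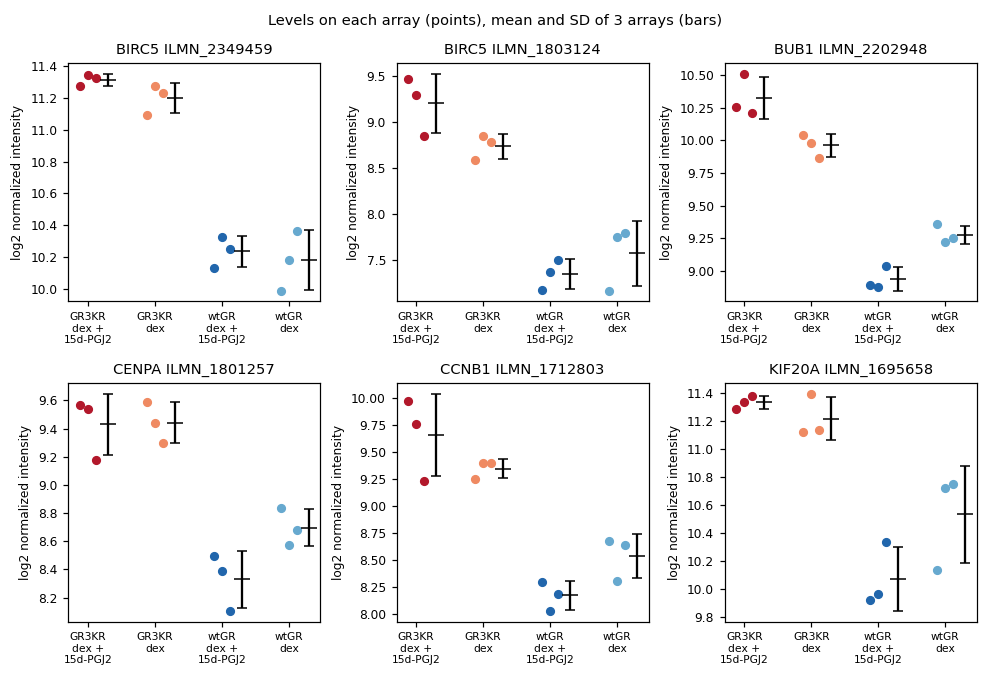
Log2 intensity of 6 probes (BIRC5 by 2 probes, BUB1, CENPA, CCNB1 and KIF20A) on each array (points), with the mean and SD of 3 arrays beside them, GR3KR groups left and wtGR groups right. The GR3KR arrays of each treatment lie above the wtGR arrays of the same treatment in all 6 panels.

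The members that start mitosis leaned the same way without passing the test. CCNB1 read 9.25, 9.40 and 9.40 in GR3KR cells, against 8.68, 8.31 and 8.64 in wtGR cells, a difference of 0.81 with no overlap between the lines (SE 0.21, adjusted p = 0.051 from limma). CDK1 differed by 0.59 on probe ILMN_1710428 and by 0.30 on ILMN_1747911, and neither was called. Of the 14 probes of cyclins, CDK1 and its regulators, 12 were positive, with a median of 0.34 and no call. PLK1, the kinase that acts from mitotic entry to cytokinesis, read 7.9997, 8.07 and 8.08 in GR3KR cells, against 7.67, 7.38 and 7.90 in wtGR cells, a difference of 0.40 that was not called. AURKA, the centrosomal kinase, differed by 0.18 and 0.21 on its probes and was not called on either.

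Among the genes of the centromere and of chromosome structure all 6 probes were positive, with a median of 0.62 and the 1 call of CENPA. CENPF, a kinetochore protein, differed by 0.56 (adjusted p = 0.0924) and CENPE, a kinetochore motor, by 0.67 on ILMN_2225718 (adjusted p = 0.0975), both from limma and neither called. TOP2A, which untangles sister chromatids, read 13.03, 12.82 and 12.63 in GR3KR cells, against 12.94, 12.78 and 12.70 in wtGR cells. The lines overlapped, and TOP2A differed by 0.01 (SE 0.18). Of the spindle motors and assembly factors, 8 of 12 probes were positive, with a median of 0.15. KIF2C, a kinesin that takes microtubules apart at centromeres, had the lowest p among them, with a difference of 0.87 (SE 0.22, adjusted p = 0.05 from limma, not called). The checkpoint and anaphase genes had 9 of 14 probes positive with a median of 0.23, and the cytokinesis genes 5 of 6 with a median of 0.52. KIF20A, of that last group, differed by 0.68 and was not called (adjusted p = 0.0878 from limma).

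**Figure D4:**
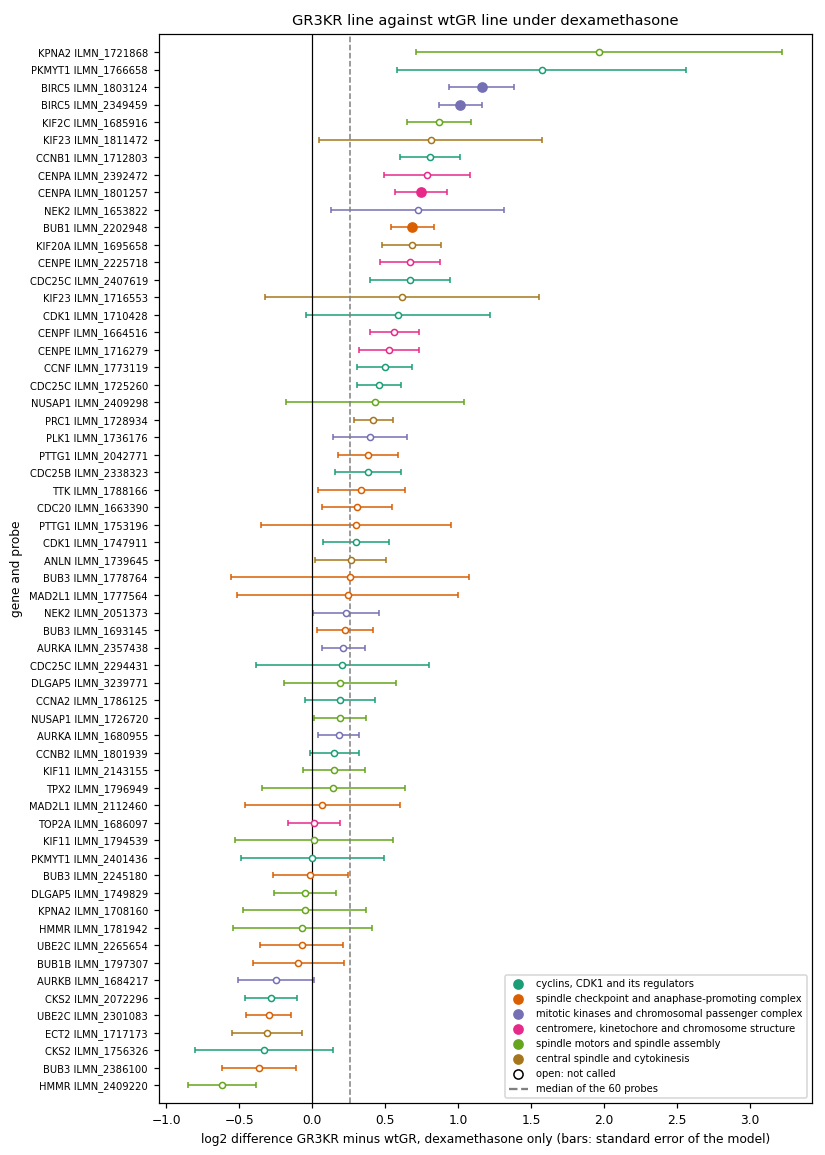
Log2 difference between GR3KR and wtGR cells under dexamethasone for each of the 60 member probes, ordered by size, with the standard error of the model as bars, filled points for called probes and a dashed line at the members' median of 0.26. Of the 60 probes 47 lie above 0 with quantile normalization and 24 with median scaling.

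Other genes of mitosis, 88 of a list of 92 with 121 kept probes, had 2 probes called higher and 1 lower in this comparison, with a median of 0.17. The 3 probes read KIFC1, a minus-end spindle kinesin (1.05), KIF14, a cytokinesis kinesin (0.75), and PPP2R2A, a regulatory subunit of phosphatase PP2A (fell by 0.87). The most alike group of genes, those of S phase, had 0 probes called higher and 4 lower of 68, with a median of -0.03. RFC3 (fell by 1.92) and RFC4 (fell by 0.73), subunits of the clamp loader, and POLE2, a subunit of DNA polymerase epsilon (fell by 1.01), were among them. The difference between the mitosis and S phase lists was not tested.

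The second comparison set the lines against each other under dexamethasone and 15d-PGJ2. It shares no array with the first, but its GR3KR group holds the arrays that stood apart. Of the 60 member probes 23 were called higher and 12 lower, against 29.7% and 21.2% of all kept probes. The balance depended on the scaling, with 18 higher and 16 lower under loess and 15 higher and 16 lower under median scaling. The members' median was 0.29, against 0.12 over all probes, and 35 of the 60 were positive. Without GR3KR dexamethasone and 15d-PGJ2 arrays 1 and 2 the counts were 12 higher and 0 lower, against 7.91% and 5.15% of all kept probes, and the count of lower probes was 5 to 19 when 1 array was left out, lowest without array 1 or 2 of this group or wtGR dexamethasone and 15d-PGJ2 array 1. Of the 35 called probes, 22 kept the call whichever array was left out, and the same share over all kept probes was not counted. In every setting tried that held the probe, 10 kept the call, as did 5.16% of all kept probes on the higher side and 4.09% on the lower. Those 10 were all higher in the GR3KR line. They read CCNB1, BUB1, PTTG1 (ILMN_2042771), BIRC5 (both probes), NEK2 (ILMN_2051373), CENPA (ILMN_1801257), CENPE (ILMN_2225718), KIF2C and KIF20A. The other probes of NEK2, PTTG1 and CENPA went the other way. NEK2 was called lower on ILMN_1653822, with a difference of -1.99. PTTG1 averaged 10.27 in GR3KR cells, against 11.51 in wtGR cells, on ILMN_1753196. CENPA averaged 7.82, against 8.34, on ILMN_2392472, and neither was called.

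CCNB1 read 9.98, 9.76 and 9.23 in GR3KR cells with dexamethasone and 15d-PGJ2, against 8.30, 8.03 and 8.19 in wtGR cells with both. The lowest GR3KR array lay above the highest wtGR array. The difference was 1.48 (SE 0.21, adjusted p = 0.000719 from limma), and 1.06 without arrays 1 and 2. BUB1 read 10.25, 10.51 and 10.21 in GR3KR cells, against 8.89, 8.88 and 9.04 in wtGR cells, a difference of 1.39 (SE 0.15, adjusted p = 0.000243 from limma) and of 1.27 without arrays 1 and 2. For BUB1 the 3 GR3KR arrays lay close together, array 3 included.

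BIRC5 read 9.47, 9.30 and 8.84 in GR3KR cells, against 7.18, 7.38 and 7.51 in wtGR cells, on ILMN_1803124. On ILMN_2349459 it read 11.27, 11.34 and 11.32, against 10.14, 10.33 and 10.25 in wtGR cells. The groups did not overlap on either probe. The differences were 1.85 (adjusted p = 0.000415) and 1.07 (adjusted p = 0.000752), both from limma, and 1.49 and 1.08 without arrays 1 and 2. KIF2C read 11.19, 11.09 and 10.74 in GR3KR cells, against 9.35, 9.48 and 9.65 in wtGR cells, a difference of 1.52 (SE 0.22, adjusted p = 0.000862 from limma) and of 1.25 without arrays 1 and 2. KIF20A, which read 11.29, 11.34 and 11.38 in GR3KR cells, against 9.92, 9.96 and 10.34 in wtGR cells, differed by 1.26 (adjusted p = 0.00126 from limma), and by 1.31 without arrays 1 and 2.

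PLK1 read 9.15, 8.92 and 8.13 in GR3KR cells, against 7.19, 7.46 and 7.60 in wtGR cells. It differed by 1.32 (SE 0.26, adjusted p = 0.0029 from limma) and by 0.71 without arrays 1 and 2, where it was not called. NEK2, a centrosomal kinase, by probe ILMN_2051373 read 10.17, 10.64 and 9.71 in GR3KR cells, against 8.95, 8.67 and 9.01 in wtGR cells. It differed by 1.30 (SE 0.23, adjusted p = 0.00178 from limma), and by 0.84 without arrays 1 and 2. The groups did not overlap for either gene, and GR3KR array 3 was the lowest of its group for both. CDK1 fell by 1.74 on ILMN_1710428, with a difference of -0.06 without arrays 1 and 2, and differed by 0.37 on ILMN_1747911, where it was not called. AURKA differed by 0.22 and 0.25 and TOP2A by 0.29, none of them called.

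The 12 probes called lower all lost the call without arrays 1 and 2. PKMYT1, the kinase that holds CDK1 inactive, read 4.63, 4.61 and 4.63 on ILMN_1766658 in GR3KR cells with dexamethasone and 15d-PGJ2, where no array detected it, against 9.59, 9.93 and 9.46 in wtGR cells with both. On ILMN_2401436 it read 4.80, 4.68 and 6.79, against 7.67, 8.13 and 8.46 in wtGR cells. PKMYT1 was thus lower on all 3 GR3KR arrays by both probes, array 3 included. The first was at least 12.5-fold lower (adjusted p = 0.00305 from limma) and the second fell by 2.66 (adjusted p = 0.00232 from limma), and without arrays 1 and 2 their differences were -5.03 and -1.30, not called. KPNA2, importin alpha 2, which also sequesters spindle assembly factors, read 4.45, 4.55 and 5.10 on ILMN_1721868 in GR3KR cells, not detected on any array, against 10.16, 10.13 and 7.53 in wtGR cells. It was at least 9.56-fold lower there (adjusted p = 0.0126 from limma), and the difference without arrays 1 and 2 was -4.17, not called. On ILMN_1708160 it read 8.45, 7.84 and 6.55 in GR3KR cells, against 5.87, 6.02 and 6.62 in wtGR cells, and was called higher by 1.44, or 0.38 and not called without arrays 1 and 2. The probes of KPNA2 were thus called in opposite directions, and on the second GR3KR array 3 lay inside the wtGR range.

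MAD2L1, the checkpoint protein that binds CDC20, also had its probes called in opposite directions. It read 7.12, 6.94 and 10.18 on ILMN_1777564 in GR3KR cells, against 10.73, 10.72 and 10.22 in wtGR cells, and fell by 2.48 (SE 0.76), with a difference of -0.38 without arrays 1 and 2. On ILMN_2112460 it read 8.23, 7.95 and 5.69 in GR3KR cells, against 5.73, 5.14 and 6.05 in wtGR cells, and was called higher by 1.65 (SE 0.53), with a difference of 0.05 without arrays 1 and 2. On both probes only arrays 1 and 2 left the wtGR range by more than 1 log2 unit. Opposite calls between probes of a gene occurred in 5 members, BUB3, KPNA2, MAD2L1, NEK2 and NUSAP1, of 19 with 2 or more probes, and in 12.1% of such genes on the array. Calls of all probes in 1 direction occurred in BIRC5 and PKMYT1, and in 15.6% of such genes. NEK2 on ILMN_1653822 read 4.55, 4.72 and 7.22 in GR3KR cells, against 7.70, 7.48 and 7.28 in wtGR cells. It differed by -1.99, or -0.27 without arrays 1 and 2. BUB3 on ILMN_1778764 read 4.53, 6.18 and 8.70, against 9.04, 8.90 and 8.55. It differed by -2.36, or -0.13 without those arrays. Its probes ILMN_2386100 and ILMN_2245180 were called higher by 1.04 and 1.10, or 0.64 and 0.63 without those arrays. ILMN_1693145 differed by 0.28. NUSAP1, a spindle microtubule binder, read 7.11, 7.27 and 8.26 on ILMN_2409298 in GR3KR cells, against 9.92, 9.78 and 8.99 in wtGR cells, and fell by 2.02, while ILMN_1726720 was called higher by 0.49. Without arrays 1 and 2 these differences were -1.30 and 0.14. HMMR was called lower on ILMN_1781942, with 6.41, 7.65 and 8.06 in GR3KR cells, against 9.68, 9.89 and 8.83 in wtGR cells. KIF23, a kinesin of the central spindle, fell by 2.28 on ILMN_1811472. It read 5.18, 7.24 and 9.05 in GR3KR cells, against 9.64, 9.56 and 9.13 in wtGR cells. TPX2, which activates AURKA on the spindle, read 7.71, 9.01 and 9.96 in GR3KR cells, against 10.91, 11.11 and 11.29 in wtGR cells, with no overlap, and fell by 2.21 (SE 0.49). Without arrays 1 and 2 TPX2 differed by -1.14 and KIF23 by -0.39.

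By role, the cyclins and CDK1 regulators had 6 probes called higher and 3 lower of 14, the checkpoint and anaphase genes 5 and 2 of 14, and the kinases and passenger complex 4 and 1 of 8. The centromere genes had 3 higher and 0 lower of 6, the spindle genes 3 and 5 of 12, and the cytokinesis genes 2 and 1 of 6. CCNB2, CCNF and CCNA2, further cyclins, were called higher by 0.87, 0.93 and 0.70, and CENPF by 0.55, of which none kept the call without arrays 1 and 2. DLGAP5, a spindle microtubule binder, fell by 1.31 on ILMN_3239771 and differed by -0.48 on its other probe. The members CDC25B, CDC20, BUB1B, UBE2C, AURKA, AURKB and TOP2A were called in none of the 5 comparisons on any of their probes. In this one the phosphatase CDC25B differed by 0.39, CDC20 by 0.39 and the checkpoint kinase BUB1B by 0.67. UBE2C, the ubiquitin-conjugating enzyme of the anaphase-promoting complex, differed by -0.36 and 0.10 and AURKB by -0.57. The other genes of mitosis had 36 probes called higher and 31 lower of 121, with a median of 0.23. S phase genes had 13 higher and 27 lower of 68, with a median of -0.36. CENPM, a centromere protein, fell by 3.99 on 1 of its probes, and MCM4, a subunit of the replicative helicase, was at least 10.2-fold lower.

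The third comparison asks what 15d-PGJ2 did to these genes in wtGR cells, and no member was called. Of the 60 probes 0 were called in either direction by limma, against 0.0622% of all kept probes called higher and 0.0239% called lower. An unadjusted p under 0.05 was found for 4 of them. The median of the members was -0.15, against -0.03 over all probes, and 19 of the 60 (31.7%) were positive, against 45.8% of all probes. With median scaling the members' median was -0.52 and that of all probes -0.30. The lowest p belonged to BUB3, which targets BUB1 and BUB1B to kinetochores. Its probe ILMN_2386100 read 9.60, 9.24 and 9.45 in wtGR cells with dexamethasone and 15d-PGJ2, against 10.65, 9.72 and 10.04 in wtGR cells with dexamethasone, a difference of -0.71 (SE 0.25, adjusted p = 0.541 from limma).

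The next 3 by p were a CDK1 subunit, a kinesin and the checkpoint kinase. CKS2, the small CDK1 subunit, read 11.88, 11.61 and 11.81 on ILMN_2072296 with 15d-PGJ2, against 12.46, 11.92 and 12.17 without it, a difference of -0.42 (SE 0.18). KIF20A read 9.92, 9.96 and 10.34, against 10.14, 10.72 and 10.75 without 15d-PGJ2, a difference of -0.46 (SE 0.20). BUB1 read 8.89, 8.88 and 9.04, against 9.35, 9.22 and 9.25 without it, a difference of -0.34 (SE 0.15, adjusted p = 0.642 from limma). The treated and untreated wtGR arrays did not overlap for BUB1, for BUB3 on this probe or for CKS2, and overlapped for KIF20A. CCNB1 differed by -0.37, PLK1 by -0.24, TOP2A by -0.28, CDK1 by 0.08 and -0.15 and AURKA by -0.20 and -0.17 on their probes, none of them called. The other mitosis genes and the S phase genes also had 0 calls of 121 and of 68 probes by limma, with medians of -0.08 and 0.06.

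In GR3KR cells, 15d-PGJ2 was followed by 9 member probes called higher and 19 lower, against 27.4% and 17.6% of all kept probes. The members' median was -0.01, against 0.18 over all probes. Without GR3KR dexamethasone and 15d-PGJ2 arrays 1 and 2, 0 member probes were called by limma in either direction, but only 0.0143% of all kept probes were then called higher and 0.0478% lower, so the size of each difference is given instead. The differences without those arrays were as large for some probes, such as -5.01 for PKMYT1 (ILMN_1766658), -4.68 for KPNA2 (ILMN_1721868), -0.47 for PRC1 and 0.75 for CENPE (ILMN_2225718), and much smaller for others. Leaving out GR3KR dexamethasone array 3, or GR3KR dexamethasone and 15d-PGJ2 array 2, left 0 member probes called higher, against 15.5% and 12.3% of all kept probes. Calls that held whichever single array was left out numbered 7, all lower, and read PKMYT1 by both probes, NEK2 (ILMN_1653822), TPX2, KPNA2 (ILMN_1721868), KIF23 (ILMN_1811472) and ANLN, an actin binder of the cleavage furrow. The share of all kept probes whose calls held in this way was not counted.

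PKMYT1 read 4.63, 4.61 and 4.63 on ILMN_1766658 in GR3KR cells with 15d-PGJ2, against 9.12, 9.53 and 10.27 in GR3KR cells without it, at least 12.3-fold lower. On ILMN_2401436 it read 4.80, 4.68 and 6.79, against 7.56, 7.95 and 8.37, and fell by 2.54 (SE 0.49, adjusted p = 0.00691 from limma), or differed by -1.17 without arrays 1 and 2. PKMYT1 was the only member with 2 or more probes all called in 1 direction, as were 10.7% of such genes on the array. Its first probe also read 4.94 on wtGR dexamethasone array 3, where it was not detected, and 9.38 and 9.88 on wtGR dexamethasone arrays 1 and 2. KPNA2 read 4.45, 4.55 and 5.10 on ILMN_1721868 with 15d-PGJ2, against 10.82, 8.67 and 9.86 without it, at least 13.6-fold lower, and it too was undetected on wtGR dexamethasone array 3, at 4.52. TPX2, at 7.71, 9.01 and 9.96 with 15d-PGJ2 and 10.84, 10.98 and 10.94 without it, fell by 2.02 (SE 0.49, adjusted p = 0.0115 from limma), or differed by -0.95 without arrays 1 and 2.

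Of the other probes that fell most, KIF23 on ILMN_1811472 read 5.18, 7.24 and 9.05 with 15d-PGJ2, against 10.65, 10.00 and 10.14 without it, and fell by 3.11 (SE 0.77). MAD2L1 on ILMN_1777564 read 7.12, 6.94 and 10.18, against 11.25, 10.85 and 11.03, and fell by 2.97 (SE 0.76). Without arrays 1 and 2 the differences were -1.22 for KIF23 and -0.87 for MAD2L1. In both genes array 3 of the treated cells stood nearer to the untreated arrays than arrays 1 and 2 did. CDK1 read 5.00, 6.36 and 8.20 on ILMN_1710428 with 15d-PGJ2, against 9.13, 8.44 and 8.74 without it, and fell by 2.26 (adjusted p = 0.0178 from limma), or differed by -0.57 without arrays 1 and 2. On ILMN_1747911 CDK1 read 10.63, 11.41 and 11.11, against 11.37, 10.95 and 11.06, and differed by -0.07. The groups overlapped on that probe and did not on the first.

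Probes of the same gene were called in opposite directions in 4 members, BUB3, HMMR, NEK2 and PTTG1, of 19 with 2 or more probes, and in 10.9% of such genes on the array. PTTG1, securin, the inhibitor of separase, read 8.42, 10.39 and 12.001 on ILMN_1753196 with 15d-PGJ2, against 12.03, 12.08 and 12.06 without it, and fell by 1.78. On ILMN_2042771 it read 14.18, 14.10 and 13.78, against 13.28, 13.33 and 13.17, and rose by 0.76. Without arrays 1 and 2 these differences were -0.06 and 0.52. On the falling probe, treated array 3 lay within 0.1 of the untreated arrays, while on the rising probe it lay above all of them. NEK2 on ILMN_1653822 read 4.55, 4.72 and 7.22 with 15d-PGJ2, against 8.10, 7.83 and 7.95 without it, and fell by 2.47. On ILMN_2051373 NEK2 read 10.17, 10.64 and 9.71, against 9.44, 9.55 and 9.31, and rose by 0.74. The differences of NEK2 without arrays 1 and 2 were -0.75 and 0.28. HMMR, a spindle protein that binds TPX2, read 6.41, 7.65 and 8.06 on ILMN_1781942 with 15d-PGJ2, against 9.80, 8.59 and 8.92, and fell by 1.73.

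On ILMN_2409220 HMMR read 9.89, 9.79 and 9.04 with 15d-PGJ2, against 8.79, 8.99 and 8.49 without it, and rose by 0.81. The probes of HMMR differed by -1.04 and 0.28 without arrays 1 and 2. BUB3 read 4.53, 6.18 and 8.70 on ILMN_1778764, against 9.45, 9.27 and 9.08, and fell by 2.80. Its probe ILMN_2386100 read 10.73, 10.61 and 10.07, against 9.70, 9.75 and 9.87, and rose by 0.69, and ILMN_1693145 differed by 0.08. The falling probe of BUB3 differed by -0.57 and ILMN_2386100 by 0.29 without arrays 1 and 2. The 4th probe of BUB3, ILMN_2245180, rose by 0.97 but was detected on 1 of 3 arrays in each GR3KR group. Of the single-probe members, ECT2, which activates RhoA at the cleavage furrow, read 9.92, 10.20 and 9.34 with 15d-PGJ2, against 9.05, 9.08 and 8.51 without it. The groups did not overlap and ECT2 rose by 0.94 (SE 0.24, adjusted p = 0.0134 from limma), or differed by 0.46 without arrays 1 and 2. PLK1 passed the test at 0.68 (adjusted p = 0.0493 from limma), but it kept the call in 1 of the 12 fits without 1 array, and differed by 0.08 without arrays 1 and 2. CCNB1 differed by 0.31, AURKA by -0.17 and -0.14, and TOP2A by -0.0040, and these 3 genes were not called.

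**Figure D5:**
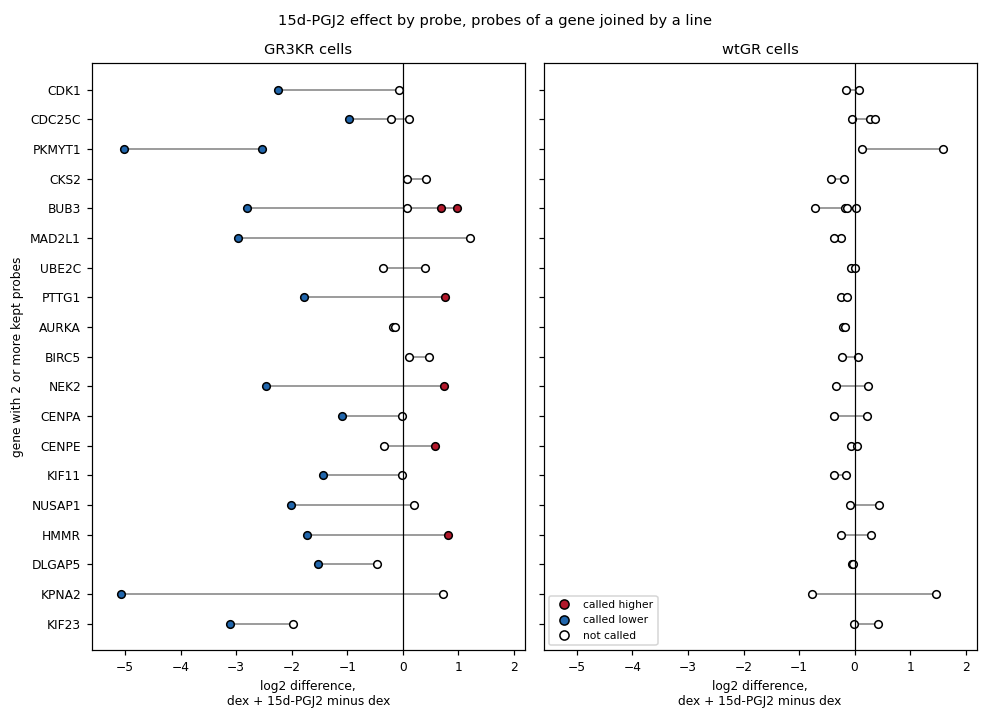
Log2 difference after 15d-PGJ2 for each probe of the 19 members with 2 or more probes, GR3KR cells left and wtGR cells right, with probes of a gene joined by a line and called probes filled (red higher, blue lower). In GR3KR cells the probes of BUB3, HMMR, NEK2 and PTTG1 carry calls in opposite directions, and in wtGR cells no probe is called.

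TTK, a checkpoint kinase, fell by 1.14, KIF11, the motor that pushes spindle poles apart, fell by 1.44 on ILMN_1794539 with a call that held in 1 of the 12 fits without 1 array, PRC1, which bundles central spindle microtubules, fell by 0.45, and ANLN fell by 1.10. With arrays 1 and 2 left out they differed by -0.70 (TTK), -0.30 (KIF11), -0.47 (PRC1) and -0.78 (ANLN). CENPA fell by 1.09 on ILMN_2392472 (-0.48 without those arrays) and differed by -0.01 on ILMN_1801257, the probe that was higher in the GR3KR line under dexamethasone. The falls were spread over the roles. The spindle genes had 1 probe higher and 6 lower of 12, the cyclins and CDK1 regulators 1 and 4 of 14, the checkpoint and anaphase genes 3 and 4 of 14, the cytokinesis genes 1 and 3 of 6, the kinases 2 and 1 of 8 and the centromere genes 1 and 1 of 6. The other mitosis genes had 22 probes higher and 32 lower of 121, with a median of -0.14. CENPM fell by 3.99 and 3.93 on its probes and NCAPG2, a condensin subunit, fell by 3.26. S phase genes had 11 higher and 19 lower of 68, with a median of -0.17, led by RPA1, a subunit of the single-strand DNA binding complex, which fell by 4.42, and ORC6, a subunit of the origin recognition complex, which fell by 3.55.

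The last comparison tested whether the response to 15d-PGJ2 differed between the lines, as the GR3KR effect minus the wtGR effect. Of the member probes 9 were called higher and 7 lower, against 14.8% and 9.1% of all kept probes, with a median of 0.06, against 0.22 over all probes, and with loess of -0.086, against -0.03. None of the 16 calls survived every fit without 1 array, and 0 held by limma without GR3KR dexamethasone and 15d-PGJ2 arrays 1 and 2, where 0% of all kept probes were called higher and 0.00478% lower. Of the 7 lower calls, 2 read PKMYT1, with a fitted difference of -2.67 on ILMN_2401436 (SE 0.69, adjusted p = 0.0286 from limma), or -1.30 without arrays 1 and 2. Its other probe, ILMN_1766658, and ILMN_1721868 of KPNA2 were called too (adjusted p = 0.0204 and 0.0315 from limma), but both were undetected on all 3 GR3KR arrays with 15d-PGJ2 and on wtGR dexamethasone array 3, so their fitted differences of -6.61 and -6.54 are not measured sizes. Without that wtGR array they were -5.05 and -4.89, and without GR3KR dexamethasone and 15d-PGJ2 arrays 1 and 2 they were -6.60 and -6.14. The higher calls were led by BUB3 at 1.40 on ILMN_2386100, where 15d-PGJ2 was followed by a rise in GR3KR cells and a difference of -0.71 in wtGR cells, and by ECT2 at 1.33, and without arrays 1 and 2 these were 1.003 and 0.85. CDC25C, a phosphatase that activates CDK1, was called on 1 of its 3 probes, ILMN_2407619, which read 7.84, 8.13 and 8.87 in GR3KR cells with 15d-PGJ2, against 9.40, 9.10 and 9.25 without it, and 8.98, 8.96 and 8.91 in wtGR cells with 15d-PGJ2, against 8.70, 8.91 and 8.14 without it. The difference of the effects on this probe was -1.34 (SE 0.38), and -0.75 without arrays 1 and 2. CCNB1 (0.67), CDK1 (-2.33 and 0.07), PLK1 (0.92), AURKA (0.03 and 0.04) and TOP2A (0.28) were not called.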

How the data were processed

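RNA of 12 samples, 3 in each of 4 groups, was hybridised to Illumina BeadChips with 47312 probes. The authors deposited the linear intensity of each probe, neither normalized nor background subtracted, and beside it a detection p-value. The authors also deposited log2 values, for which the submitters' processing notes name lumi; its steps are not given in the sources used here, and these values served as an alternative.

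Intensities were background corrected with the detection p-values, given an offset of 16, normalized by quantiles and log2 transformed (limma 3.58.1, R 4.3.3). The 20909 kept probes had 3 or more arrays with a detection p-value under 0.01. In the probe annotation 30107 probes have 1 gene symbol, 8 have several and 17197 have none. The 4 group means of every kept probe were fitted with lmFit and eBayes (8 residual and 2.73 prior degrees of freedom), and 5 comparisons were tested, 2-sided, with Benjamini-Hochberg adjustment over the kept probes. The script was tested on simulated data. Errors beside differences are standard errors of the model. Folds written "at least" raise the undetected group's arrays to the lowest detected level of each. The number of arrays limits the precision, and probes of a gene are reported separately, since where in the transcript each lies was not used.

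Differences or folds are given, in each comparison, for up to 6 called probes in each direction with the largest differences among those whose groups do not overlap, for genes with probes called in opposite directions, and, where under 2 probes were called, for the 4 with the lowest p. Array values are given for most of these probes. CCNB1, CDK1, PLK1, AURKA and TOP2A were always described. Members, lists and these rules were chosen with earlier results of these data known. KIF20A, the 10 probes called in every setting, and the calls next to the threshold were named after their values were seen. Promoter sequences were matched by symbol to RefSeq (GRCh38.p14) and searched for the motifs on both strands. Alternatives were other normalizations, background corrections, filters and probe choices, the deposited log2 values, the replicate block, and leaving out arrays.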

Additional observations from a re-analysis of the deposited data

Results flagged for a closer look

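The 15d-PGJ2 effect differed between the lines, by a test of the difference itself (limma interaction, adjusted p between 0.0204 and 0.0497), for 16 of the 60 member probes, 9 higher and 7 lower, against 14.8% and 9.1% of all kept probes, so the shares are near those of the whole array. As log2 differences, GR3KR effect minus wtGR effect, the 7 negative ones were PKMYT1 at -6.61 and -2.67 on its probes, KPNA2 at -6.54 on ILMN_1721868, NEK2 at -2.71 on ILMN_1653822, TPX2 at -2.36, CDC25C at -1.34 on ILMN_2407619 and CENPA at -1.31 on ILMN_2392472. The 9 positive ones were BUB3 at 1.40 on ILMN_2386100 and 1.11 on ILMN_2245180, ECT2 at 1.33, NEK2 at 1.07 on ILMN_2051373, HMMR at 1.06 on ILMN_2409220, PTTG1 at 0.90 on ILMN_2042771, CKS2 at 0.84 on ILMN_2072296, CCNB2 at 0.72 and BUB1 at 0.70. The PKMYT1 value of -6.61 and the KPNA2 value are fitted and not measured sizes, since these probes were undetected on all 3 GR3KR arrays with 15d-PGJ2 and on wtGR dexamethasone array 3, without which they were -5.05 and -4.89. The BUB3 probe ILMN_2245180 was detected on no more than 1 array in any group. None of the 16 kept its call in every fit that left out 1 array, and 0 kept it without arrays 1 and 2 of GR3KR cells with dexamethasone and 15d-PGJ2, where 0.00478% of all kept probes were called lower and 0% higher. The differences without those arrays were -6.60 for PKMYT1 (ILMN_1766658), -6.14 for KPNA2 and 0.89 for CKS2, close to those with them, and -1.30 for PKMYT1 (ILMN_2401436), -0.99 for NEK2 (ILMN_1653822) and -1.29 for TPX2. Without those arrays and wtGR dexamethasone array 3, the probe ILMN_1766658 of PKMYT1 alone kept it. NEK2 appears in both directions, by different probes.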

How the results depend on the processing

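Counts are of the 60 member probes, and the shares of all kept probes called also changed. In GR3KR cells 27.4% called higher became 15.6% with loess and 4.19% with median scaling, and 17.6% called lower became 17.7% and 21.1%. For the difference 14.8% called higher became 4.5% with loess. Between the lines under dexamethasone 1.55% called higher became 2.59% with loess and 0.727% with median scaling. Under dexamethasone and 15d-PGJ2 29.7% became 20.1% and 11.6%. In GR3KR cells the 9 probes called higher after 15d-PGJ2 became 5 with loess, 1 with median scaling, and 0 both without GR3KR dexamethasone and 15d-PGJ2 arrays 1 and 2 and without these and wtGR dexamethasone array 3, with a range of 0 to 15 when leaving out 1 array. The 19 called lower became 12 with probes detected on all arrays, 9 with 1 probe per gene, 0 without arrays 1 and 2, 2 without the 3 arrays and 8 to 22 when leaving out 1 array. For the difference of the effects, the 9 higher became 0 with loess, 4 without a filter, 2 with the replicate block, 0 without the 2 or the 3 arrays and 0 to 14 when leaving out 1 array. The 7 lower became 3 with loess, 2 with median scaling, 2 without a filter, 3 with 1 probe per gene, 3 with the replicate block, 0 without the 2 arrays, 1 without the 3 and 0 to 17 when leaving out 1 array. Between the lines under dexamethasone, the 4 higher became 7 with loess, 1 with median scaling, 9 with the deposited log2 values, 8 with probes detected on all arrays, 10 without the 2 and 10 without the 3 arrays, and 1 to 7 when leaving out 1 array, and the 0 lower became 1 with median scaling, 1 without the 2 arrays and 0 to 1 when leaving out 1 array. Under dexamethasone and 15d-PGJ2 the 23 higher became 15 with median scaling, where 16 were lower (18 and 16 with loess), and 12 without the 2 arrays, and the 12 lower became 6 with probes detected on all arrays, 6 with 1 probe per gene, 0 without the 2 arrays, 3 without the 3 and 5 to 19 when leaving out 1 array. Members' medians moved to -0.52 with median scaling in wtGR cells, to -0.17 with loess and -0.18 with median scaling in GR3KR cells (0.11 with 1 probe per gene and 0.078 with probes detected on all arrays), to 0.39 with median scaling and -0.086 with loess for the difference, to -0.057 with median scaling between the lines under dexamethasone, and to 0.10 with loess and 0.42 with 1 probe per gene under dexamethasone and 15d-PGJ2. The cause of these shifts was not tested, and some settings also hold fewer arrays or probes.

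Of the calls over all kept probes, 60.8% were higher in the GR3KR effect, against 46.9% with loess and 16.6% with median scaling. For the difference 61.9% were higher, against 42.2% with loess. Between the lines it was 33% under dexamethasone, against 7.29% with median scaling, and 58.4% under dexamethasone and 15d-PGJ2, against 47.5% with loess and 30.3% with median scaling. With median scaling the median of all probes went from -0.03 to -0.30 in the 15d-PGJ2 effect in wtGR cells. In GR3KR cells it went from 0.18 to -0.17, and for the difference of the effects from 0.22 to 0.11. Between the lines it went from 0.00 to -0.25 under dexamethasone and from 0.12 to -0.27 under dexamethasone and 15d-PGJ2. Of 1922 values of 90 named results in other settings, 1502 kept direction and side of the threshold, 369 lost the call and 16 gained one. The other 35 changed direction and were called in neither setting. Same-numbered arrays paired only in part: 6 of 18 correlations of their deviations were over 0.1, in a range of -0.75 to 0.75. None of the 6 involved GR3KR cells with 15d-PGJ2. Among the other 3 groups, arrays numbered 1 correlated at 0.68 to 0.75. Those numbered 2 correlated at -0.75 to 0.15, and those numbered 3 at 0.09 to 0.68. The replicate block otherwise gave 8 and 18 calls in GR3KR cells, 3 and 0 and then 22 and 10 between the lines, and 0 in wtGR cells. The slide was not run as a block, since no slide is named in the sources used here.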
